A study of Xenopus laevis with 6 samples.

Results

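Origin licensing loads the replicative DNA helicase onto chromosomes before S phase. The genes grouped under this name encode loading proteins, subunits of the helicase, the Cdc45 protein that activates it, and the protein that blocks reloading. They were followed here in a brain and pituitary block of juvenile *Xenopus laevis* frogs, as 10 genes: *orc1*, *mcm2*, *mcm3*, *mcm4*, *mcm5*, *mcm6*, *mcm7*, *cdc6*, *cdc45* and *gmnn*. Members were the probe sets annotated with a single gene symbol that, once the suffix .L or .S was removed, was one of these names. All 10 genes were measured, by 16 of the 32539 tested probe sets. *X. laevis* is allotetraploid: a symbol ending in .L names the gene copy on the longer chromosome of a homeologous pair, and one ending in .S the copy on the shorter. Both copies were represented for *mcm4*, *mcm5*, *mcm7*, *cdc6*, *cdc45* and *gmnn*, and the .L copy alone for *orc1*, *mcm2*, *mcm3* and *mcm6*. A further probe set annotated to both *cdc45* copies was not counted as a member.

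The frogs were juveniles with an average body weight of 0.8 g, and received an intracerebroventricular injection of either 0.6% saline (frogs 1 to 3) or rxLeptin, which is recombinant *X. laevis* leptin, dosed at 20 ng per g body weight (frogs 4 to 6). Preoptic area, hypothalamus and pituitary were dissected together 2 h later, and RNA of each frog was hybridized to 1 Affymetrix array. The labels number each sample as its own frog. The series asks how these tissues respond acutely to leptin.

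In the textbook scheme, worked out largely in *Xenopus* egg extracts and yeast, the origin recognition complex binds DNA, and Cdc6 and Cdt1 then load the MCM complex, a ring of the MCM2 to MCM7 proteins, in G1. At the start of S phase, Cdc45 and the GINS complex join the MCM ring to form the moving helicase. Geminin, the product of *gmnn*, binds Cdt1 and prevents a second round of loading. Transcripts of these genes are typical of dividing cells and are low in neurons that have left the cell cycle, and the ventricular zones of the frog brain keep dividing progenitors after metamorphosis.

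Array medians lay between 7.36 and 7.46 on the log2 scale, and correlations between arrays over all tested probe sets between 0.983 and 0.995. Leptin frog 6 stood slightly apart: in the dimmest 20% of probe sets its median deviation from the mean of the 6 arrays was 0.14, against -0.05 to -0.01 in the other frogs, and in the middle 20% it was -0.07, against -0.0016 to 0.03. The blocks also differed in content. Markers of pituitary averaged 5.28 in saline frog 1, against 10.09 to 11.06 in the other 5 frogs, and markers of skeletal muscle averaged 7.73 in saline frog 3, against 5.82 to 6.29 elsewhere. Saline frog 1 also had the highest mean of erythrocyte markers, at 10.42, against 9.70 to 9.97 in the other 5 frogs. Means of oligodendrocyte markers (4 probe sets, 2 of 8 listed genes) ran from 11.37 in saline frog 2 to 12.27 in saline frog 3, with leptin frog 6 at 12.26. The 11 probe sets of neuronal markers averaged 11.31 in leptin frog 6, against 10.92 to 11.15 in the other 5 frogs. Among them *snap25.L*, at 13.64 to 13.83, and *tubb3.L*, at 13.17 to 13.56, were bright in all 6 frogs. By contrast, *syt1.L* read 5.68 to 6.41. For *stmn2.L*, a dim probe set read 5.85 to 6.33 and a bright one 13.17 to 13.28. Leptin frog 6 exceeded the other frogs most in neurofilament markers. There *nefm.L* read 11.82, against 10.38 to 11.23 elsewhere, and *nefm.S* 10.73, against 9.36 to 10.16. *nefl.L* read 10.79 there, against 9.99 to 10.38. Leptin frog 6 was the lowest frog in *syt1.L* and in the bright *stmn2.L* probe set. In such a block, fewer cells of a type and less RNA per cell cannot be told apart.

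The 16 licensing probe sets covered a wide range of signal, from percentile 3.23 (*mcm6.L*) to percentile 67.7 (*mcm7.L*) of all tested probe sets by mean signal. Brightness also depends on the probes of a set, so these positions do not order the transcripts by abundance, and no measure of background was used. Averaged over saline frogs, *mcm7.L* read 8.62 ± 0.11, *mcm2.L* 8.64 ± 0.23, *gmnn.S* 8.58 ± 0.11 and *gmnn.L* 8.35 ± 0.34 (SD, n = 3 each). The lowest readings were those of *mcm6.L*, at 3.67 ± 0.13, and *cdc45.S*, at 3.82 ± 0.20 (SD, n = 3 each). The probe sets of *mcm2.L*, *mcm7.L*, *gmnn.L* and *gmnn.S* had neighbouring means whose ranges over frogs overlapped.

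**Figure D1:**
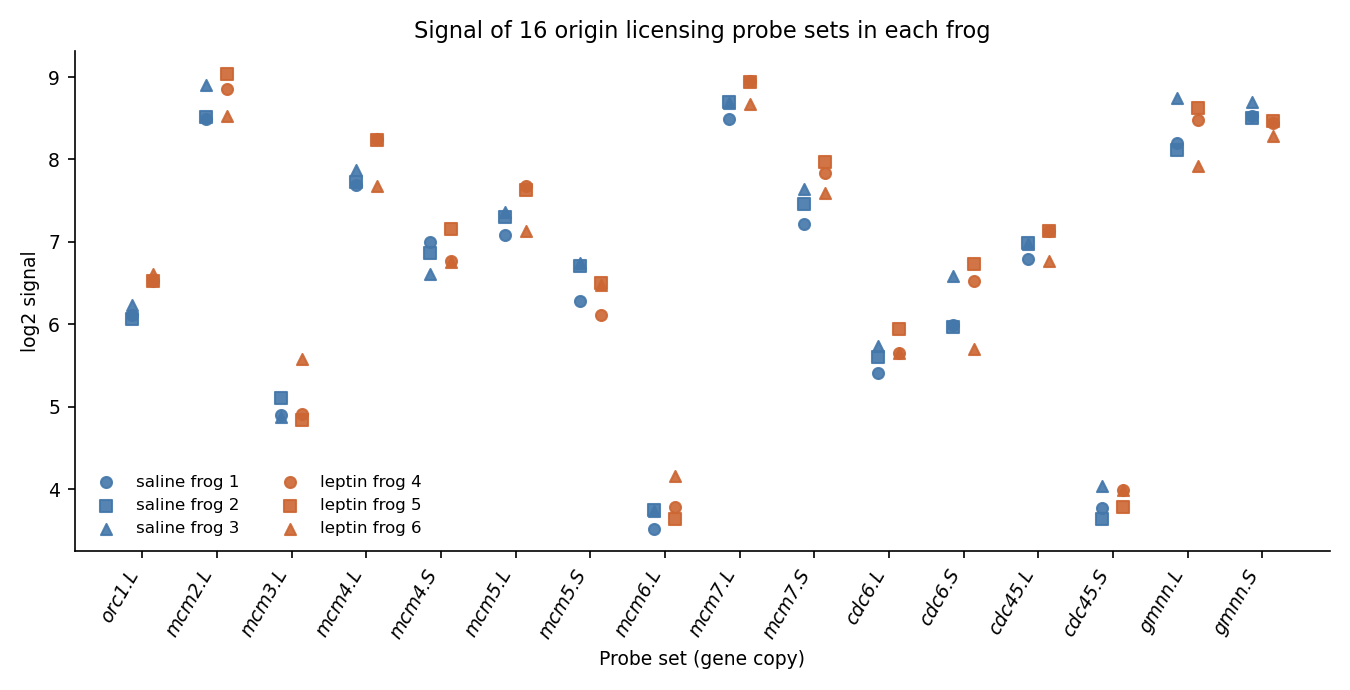
Log2 signal (vertical axis) of the 16 licensing probe sets (horizontal axis) in each of 6 frogs, with saline frogs in blue and leptin frogs in orange, 1 point per frog. Signals run from below 4 for *mcm6.L* and *cdc45.S* to about 9 for *mcm2.L* and *mcm7.L*, and only *orc1.L* and *gmnn.S* show groups that do not overlap.

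None of the licensing probe sets passed the test of leptin against saline: with limma and Benjamini-Hochberg adjustment over all tested probe sets, 0 of 16 members had an adjusted p under 0.05, as did 0% of all probe sets (0 of 32539). Their adjusted p-values lay between 0.906 and 0.996. At an unadjusted p under 0.05, 2 of 16 members were higher in leptin frogs, *orc1.L* and *mcm7.S*, against 2.03% of all probe sets, and 0 were lower, against 2.68%. The difference was above 0 for 13 of 16 members, compared with 52.4% of all probe sets. The median difference over the members was 0.16 on the log2 scale, and 0.01 over all tested probe sets. The 3 probe sets with a difference below 0 were *mcm5.S* (-0.21), *gmnn.S* (-0.18) and *gmnn.L* (-0.01, SE 0.24).

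**Figure D2:**
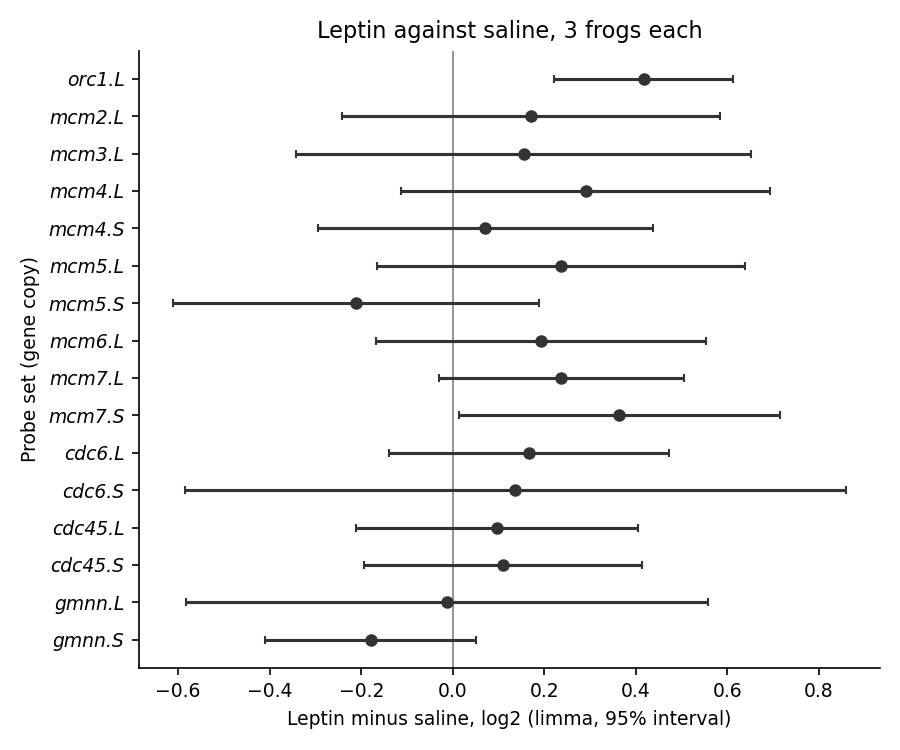
Difference between leptin and saline frogs (log2, horizontal axis) for each licensing probe set (vertical axis), with 95% intervals from limma before adjustment for multiple testing, 3 frogs per group. The intervals of *orc1.L* and *mcm7.S* lie above 0, and the other 14 include 0.

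*orc1* encodes the largest subunit of the origin recognition complex, an ATPase needed for loading. Its probe set *orc1.L* read 6.11, 6.07 and 6.23 in saline frogs 1 to 3, and 6.53, 6.53 and 6.61 in leptin frogs 4 to 6. Every leptin frog exceeded every saline frog, and the gap between the groups exceeded the range within either. The difference was 0.42 on the log2 scale (SE 0.08, 95% interval 0.22 to 0.61), a 1.34-fold higher signal, with an unadjusted p of 0.00169 and an adjusted p of 0.906. By unadjusted p it ranked 37 of 32539. Groups without overlap, leptin above saline, were seen in 1 of 16 members and in 5.15% of all probe sets. *orc1.L* was highest in leptin frog 6. That frog held the highest reading in 3 of 16 members and the lowest in 5 of 16, against 25.9% and 24.4% of all probe sets. Over the 15 alternative settings that keep this probe set, its difference stayed between 0.38 and 0.49. Settings that change only the variance model leave the difference unchanged. Apart from the fit without saline frogs 1 and 3 together, unadjusted limma p ran from 0.000648 to 0.00788, with no adjusted p under 0.696.

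*cdc6* encodes the ATPase that joins the origin recognition complex to recruit the MCM ring. *cdc6.L* read 5.41, 5.60 and 5.74 in saline and 5.65, 5.94 and 5.65 in leptin frogs (difference 0.17, SE 0.13). *cdc6.S* read 6.00, 5.97 and 6.59 in saline and 6.53, 6.73 and 5.70 in leptin frogs (difference 0.14, SE 0.30). The groups overlapped for both copies, and on *cdc6.S* saline frog 3 was among the high arrays and leptin frog 6 was the lowest of all. Without leptin frog 5 the difference was 0.07 for *cdc6.L* and -0.07 for *cdc6.S*, and without leptin frog 6 it was 0.45 for *cdc6.S*.

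The MCM2 to MCM7 subunits form the helicase ring, and 9 probe sets measured them. Of these, 8 had a difference above 0, with a median of 0.19 on the log2 scale, and none had groups without overlap. *mcm7.S* read 7.21, 7.46 and 7.64 in saline and 7.84, 7.97 and 7.59 in leptin frogs, a difference of 0.36 (SE 0.15, 95% interval 0.01 to 0.71, unadjusted p = 0.0440). Only leptin frog 6 fell within the saline range. *mcm7.L* read 8.49, 8.69 and 8.68 in saline and 8.96, 8.94 and 8.67 in leptin frogs, a difference of 0.24 (SE 0.11, unadjusted p = 0.0745), again with leptin frog 6 inside the saline range.

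In *mcm4.L* and *mcm5.L*, leptin frog 6 was also the lowest of the leptin group. *mcm4.L* read 7.69, 7.73 and 7.88 in saline and 8.25, 8.23 and 7.68 in leptin frogs (difference 0.29, SE 0.17). *mcm5.L* read 7.08, 7.30 and 7.36 in saline and 7.68, 7.63 and 7.13 in leptin frogs (difference 0.24, SE 0.17). In both, leptin frogs 4 and 5 exceeded every saline frog. Leptin frog 6 was the lowest of all 6 arrays in *mcm4.L* and lay within the saline range in *mcm5.L*. *mcm2.L* read 8.49, 8.52 and 8.91 in saline and 8.85, 9.04 and 8.53 in leptin frogs (difference 0.17, SE 0.17), where saline frog 3 lay above leptin frog 4. Its difference was 0.05 without leptin frog 5 and 0.31 without leptin frog 6. Leaving out leptin frog 4 or leptin frog 6 moved *mcm4.L* to 0.19 or 0.48 and *mcm5.L* to 0.14 or 0.41.

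The short-chromosome copies *mcm4.S* and *mcm5.S* showed no such order. *mcm4.S* read 6.995, 6.87 and 6.61 in saline and 6.77, 7.16 and 6.75 in leptin frogs (difference 0.07, SE 0.15). *mcm5.S* read 6.28, 6.71 and 6.74 in saline and 6.12, 6.50 and 6.48 in leptin frogs (difference -0.21, SE 0.17). The groups overlapped in both. Leaving out saline frog 1 moved *mcm5.S* to -0.36, and leaving out leptin frog 4 moved it to -0.09. *mcm4.S* turned to -0.06 when leptin frog 5 was dropped, and to -0.03 when saline frog 3 was.

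Since .L and .S probe sets are read on the same array, the difference between copies was formed within each frog and compared between groups. For *mcm5*, .L minus .S was 0.67 ± 0.11 in saline and 1.12 ± 0.46 in leptin frogs (SD, n = 3 each), a change of 0.45 (exact permutation p = 0.2, two-sided; adjusted over 6 genes 0.75). Over the 6 genes with both copies the exact p-values ran from 0.2 (*mcm5*) to 1 (*cdc45*), where 0.1 is the smallest that 3 frogs against 3 can give. The test could thus not pass 0.05 for any gene, whatever the balance of its copies.

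The dimmest MCM probe sets were highest in leptin frog 6. *mcm3.L* read 4.90, 5.10 and 4.87 in saline and 4.91, 4.84 and 5.59 in leptin frogs (difference 0.15, SE 0.21), and *mcm6.L* read 3.52, 3.75 and 3.73 in saline and 3.79, 3.64 and 4.16 in leptin frogs (difference 0.19, SE 0.15). Leptin frog 6 lay 0.55 (*mcm3.L*) and 0.39 (*mcm6.L*) above the 6-frog mean. Both belong to the dimmest 20% of probe sets, where the median deviation of that array was 0.14. *cdc45.S*, also in that range, lay 0.13 above its 6-frog mean in leptin frog 6 and 0.16 above it in saline frog 3, its highest frog. The part of the array-wide deviation in these readings was not tested. Without leptin frog 6 the difference was -0.08 for *mcm3.L* and 0.04 for *mcm6.L*. *X. laevis* has separate maternal and zygotic forms of MCM3 and MCM6, and the RefSeq gene table lists mmcm6 as a synonym of *mcm6.L* and zMCM6 as one of *mcm6.2.L*.

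The zygotic forms are not members under their symbols. *zmcm3.L*, chosen after its values were seen, averaged 6.49 in saline frogs (percentile 38.4 of all probe sets), with a difference of 0.10 (SE 0.15). *mcm6.2.L* averaged 7.69 in saline frogs (percentile 55.8) and read 0.32 higher in leptin frogs (SE 0.11, unadjusted p = 0.0276, adjusted p = 0.906), without overlap between groups. *mcm6.2.S* differed by 0.20 (SE 0.24).

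Cdc45 turns the loaded ring into an active helicase. *cdc45.L* read 6.79, 6.98 and 6.98 in saline and 7.13, 7.14 and 6.77 in leptin frogs (difference 0.10, SE 0.13), with leptin frog 6 the lowest of the 6 arrays. Leaving out saline frog 1 gave 0.03, and leaving out leptin frog 6 gave 0.22. *cdc45.S* was near the bottom of the signal range, at 3.78, 3.64 and 4.04 in saline and 3.99, 3.79 and 4.00 in leptin frogs (difference 0.11, SE 0.13), which became 0.02 when saline frog 2 was left out and 0.22 when saline frog 3 was. The probe set shared by both copies spanned 7.22 to 7.47 over the 6 frogs.

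Geminin, the inhibitor, was measured by 1 probe set per copy, and neither passed. *gmnn.S* read 8.52, 8.51 and 8.70 in saline and 8.45, 8.46 and 8.28 in leptin frogs. All leptin frogs lay below all saline frogs, as in 6.78% of all probe sets, but the closest frogs were separated by less than the range within either group. The difference was -0.18 (SE 0.10, 95% interval -0.41 to 0.05, unadjusted p = 0.107, adjusted p = 0.906). Without saline frog 3 it was -0.12. *gmnn.L* read 8.20, 8.12 and 8.74 in saline and 8.48, 8.62 and 7.92 in leptin frogs (difference -0.01, SE 0.24), and its sign turned in 7 of 16 alternative settings, array centring and quantile scaling among them. Some of the 16 could not turn it, since filtering dim probe sets or changing only the variance model leaves the difference unchanged.

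The members also varied from frog to frog within each group. Leptin frog 5 held the highest reading in 6 of 16 members and saline frog 1 the lowest in 6 of 16, whereas over all probe sets these arrays held the highest in 11.6% and the lowest in 14.4%. Leptin frog 6 held the lowest in 5 of 16 members and in 24.4% of all probe sets, the largest such share of any array. Averaged over the 16 members, the deviation from each probe set's own mean was -0.18, -0.09 and 0.06 in saline frogs 1 to 3 and 0.09, 0.17 and -0.06 in leptin frogs 4 to 6. Saline frog 3 thus lay above leptin frog 6, and the groups overlapped.

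Over the 120 pairs of member probe sets, the median Pearson correlation across the 6 arrays was 0.20, with quartiles of -0.09 and 0.69. The median over all pairs of tested probe sets was 0.00. A correlation above 0.8 was found in 18.3% of member pairs and in 4.43% of all pairs. With group means removed the member median was 0.25 and the share above 0.8 was 26.7%, against 6.86% of all pairs. These values describe 6 arrays that share group, block content and array-wide signal, and they carry no test.

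The correlations split the members. Among *mcm2.L*, *mcm4.L*, *mcm5.L*, *mcm7.L* and *mcm7.S*, a set chosen after the values were seen, the 10 pairs lay between 0.76 and 0.97. *cdc45.L* followed *mcm5.L* at 0.97, and *cdc6.S* followed *gmnn.L* at 0.96 and *mcm2.L* at 0.95. *mcm3.L* and *mcm6.L*, the pair highest in leptin frog 6, correlated with each other at 0.90, while *mcm3.L* ran against *gmnn.L* at -0.81. *orc1.L* exceeded 0.8 with 0 other members, as did *mcm4.S*, *mcm5.S*, *cdc45.S* and *gmnn.S*. Between copies of the same gene the correlation was 0.94 for *mcm7*, 0.70 for *gmnn* and 0.67 for *cdc6*, but 0.26 for *mcm4*, -0.03 for *cdc45* and -0.24 for *mcm5*. The median was 0.52 over 1301 other genes with 1 probe set for each copy. *cdc45.S* lay near the bottom of the signal range, at percentile 4.33, so its correlation with *cdc45.L* says little about the copies.

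**Figure D3:**
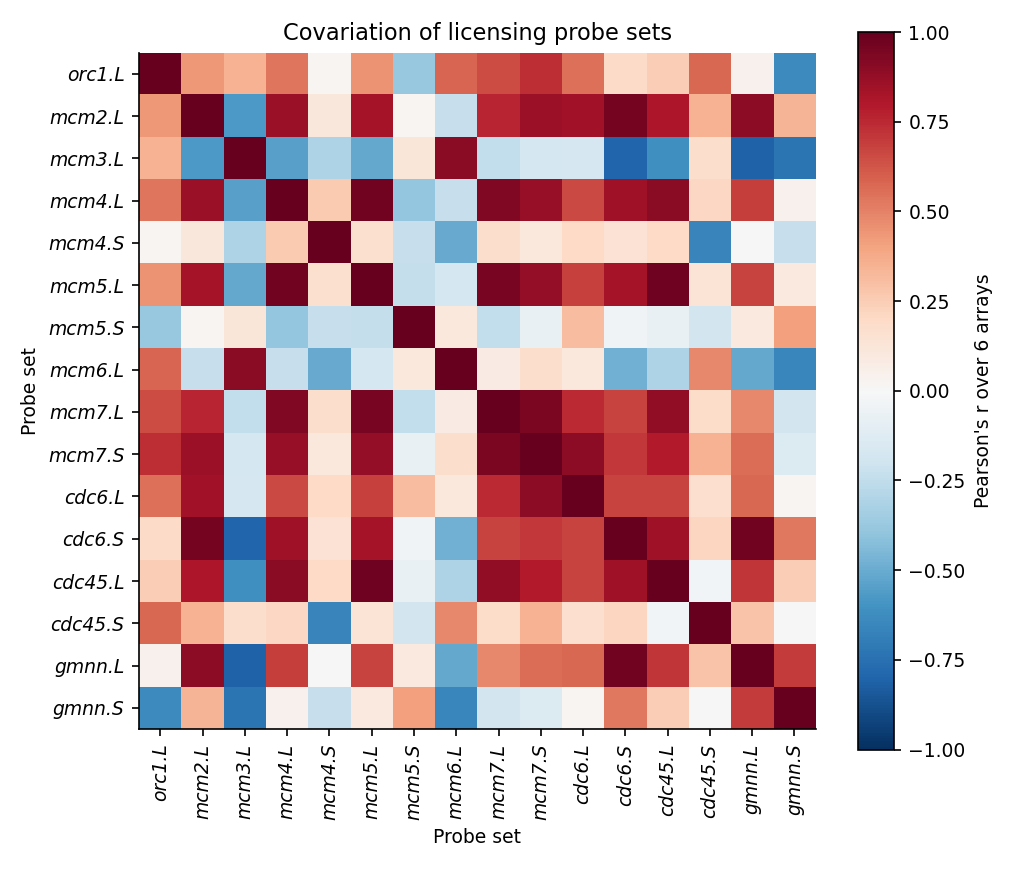
Pearson correlation over 6 arrays (colour, red positive and blue negative) between each pair of the 16 licensing probe sets, in the order *orc1*, *mcm2* to *mcm7*, *cdc6*, *cdc45*, *gmnn* on both axes. *mcm2.L*, *mcm4.L*, *mcm5.L*, both copies of *mcm7* and *cdc6*, *cdc45.L* and *gmnn.L* are red with each other, and *mcm3.L* and *mcm6.L* pair with each other.

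Outside the members, the genes whose probe set most resembled the members' mean profile were taken from 9263 genes with a single symbol. The closest was *tyms.L*, thymidylate synthase, which makes the thymidine nucleotide used in DNA synthesis, at a Pearson correlation of 0.997 over the 6 arrays. It read 6.92, 7.21 and 7.60 in saline and 7.63, 7.89 and 7.30 in leptin frogs, so saline frog 3 again lay close to leptin frog 4 and leptin frog 6 was the lowest leptin frog. The next were *eif4g1.L*, a scaffold of translation initiation (0.988), the MAP kinase phosphatase *dusp1.S* (0.987) and *melk.L*, a kinase of dividing cells (0.980). *cybrd1.L*, a ferric reductase (0.977), and the actin-binding *lima1.L* (0.975) completed the 6. The *eif4g1.L* signal varied by little, from 10.35 to 10.46. With 6 arrays, 105 of the 9263 genes had a probe set correlated above 0.9 with the profile. The members themselves followed this profile unevenly. Their correlation with it was 0.97 for *mcm7.S* and 0.95 for *mcm2.L*, but 0.10 for *gmnn.S*, 0.06 for *mcm4.S* and 0.02 for *mcm6.L*. It was 0.01 for *mcm5.S* and -0.36 for *mcm3.L*, so likeness to the profile is not likeness to every member. These low values were not alike once group means were removed. *gmnn.S* then correlated with *mcm2.L* at 0.97 (0.34 before removal), with *mcm7.S* at 0.86 (-0.14) and with *mcm3.L* at -0.79 (-0.73). *mcm4.S* correlated with *mcm2.L* at 0.04 (0.11).

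Other genes of the replication cycle gave a mixed picture. Of 25 further genes for helicase loading and activation, 22 were measured by 26 probe sets, of which 0 passed adjustment, 11 had a difference above 0 and 15 below, with a median of -0.02. The smallest p-values belonged to *mcm8.L*, an MCM-related helicase of recombination repair (difference 0.37, SE 0.11), *mcm6.2.L*, *gins2.L* of the GINS complex (-0.18, SE 0.10) and *mtbp.S*, a partner of the firing factor Treslin (-0.16, SE 0.10). Of 34 genes for the replication fork and nucleotide supply, 30 were measured by 54 probe sets. Among these 0 passed, 28 lay above 0 and 26 below, and the median was 0.01. Named by the same rule, *uhrf1.S*, which recruits the maintenance methyltransferase (0.33, SE 0.09), and that enzyme's gene *dnmt1.S* (0.27, SE 0.09) lay above 0. The clamp loader subunit *rfc5.S* (-0.56, SE 0.22) and the single-strand binding subunit *rpa2.L* (-0.28, SE 0.13) lay below.

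For G1/S control, 19 of 26 genes were measured by 40 probe sets. Again 0 passed, with 29 above 0, 11 below and a median of 0.06. The E2F factors, which drive transcription of many licensing genes or limit it, included *e2f7.L*, a repressor (0.37, SE 0.11), and *e2f3.S* (0.29, SE 0.09). Cyclin A2, *ccna2.L*, differed by 0.38 (SE 0.16) and cyclin E1, *ccne1.S*, by -0.35 (SE 0.15). In the mitosis list, all 14 genes were measured by 30 probe sets, with 0 passing, 27 above 0, 3 below and a median of 0.22. *aurka.L*, *ccnb3.S*, *top2a.L* and *kif11.L* had its smallest p-values, with differences from 0.32 (*kif11.L*) to 0.57 (*top2a.L*). All of these lists were chosen with earlier results of these data known.

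Frog by frog, the lists shared much of their course. In each of them the mean deviation was negative in saline frogs 1 and 2 and positive in leptin frogs 4 and 5. Leptin frog 6 was the lowest leptin frog in each. The lists differed in where leptin frog 6 and saline frog 3 lay. In the mitosis list the mean deviation was -0.24, -0.07 and -0.03 in saline frogs and 0.18, 0.12 and 0.04 in leptin frogs, so the groups did not overlap. In the licensing genes leptin frog 6 lay below saline frog 3. The other loading and activation genes had their lowest mean in leptin frog 6, at -0.11, and the fork list had its highest in saline frog 3, at 0.07. Whether the lists differ in their response to leptin was not tested.

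**Figure D4:**
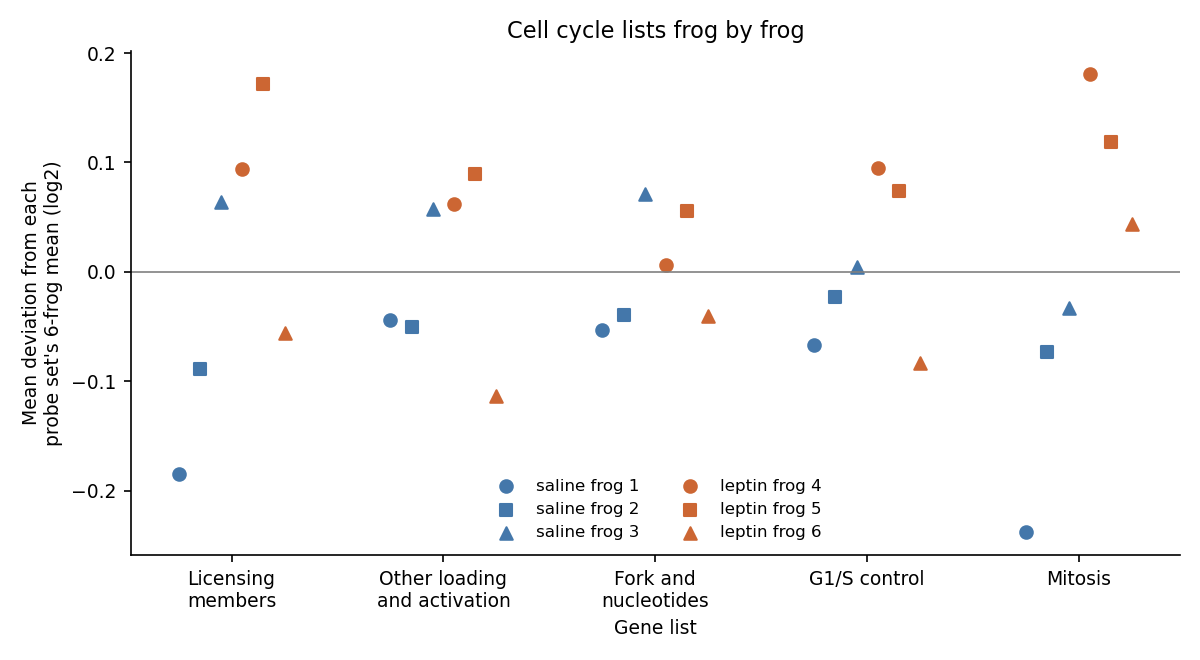
Mean deviation from each probe set's 6-frog mean (log2, vertical axis) for the licensing members and 4 other cell cycle lists (horizontal axis), 1 point per frog, saline in blue and leptin in orange. Leptin frog 6, the orange triangle, lies within or below the saline range in all lists but mitosis, where every leptin frog lies above every saline frog.

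Block content and arrays that stand apart were set beside these values. Saline frog 1, with the low pituitary and the highest erythrocyte signal, had the lowest mean over the licensing members, and without it the median member difference was 0.11. Without saline frog 3, which had the raised muscle signal, it was 0.23, and without leptin frog 6 it was 0.22. With the pituitary hormone mean as a covariate it was 0.11, and with the muscle mean 0.27. The pituitary mean stood apart mainly in saline frog 1 and the muscle mean mainly in saline frog 3. These fits thus cannot tell block content from the single frog. The 8 endothelium and pericyte probe sets (4 of 8 listed genes) averaged 8.69 to 8.94 in saline and 9.07 to 9.15 in leptin frogs, without overlap. Taken singly, 2 of these 8 had groups without overlap, leptin above saline, as *orc1.L* did, against 5.15% of all probe sets. Several of the 8 belonged to *egfl7*, so the mean leans on that gene. An *egfl7.L* probe set read 6.68 in leptin frog 6, against 5.55 to 6.04 elsewhere. In the same frog *pecam1.L* was the lowest of all, at 7.39, against 7.40 to 7.92. *cldn5.L* read 10.68 there, below saline frog 2 at 10.70. The 22 probe sets of radial glia and neural progenitors (11 of 14 listed genes) averaged 9.82 to 9.93 in saline and 9.71 to 9.97 in leptin frogs. The low end in leptin frog 6 rests on 1 probe set of *nes.S* (nestin), at 4.35 there and 6.88 to 8.03 in the other frogs. Without it, an alternative chosen after seeing the data, the other 21 probe sets averaged 9.95 to 10.05 in saline and 9.96 to 10.06 in leptin frogs, and the lowest was saline frog 3. The part of these cell types in the licensing values was not tested.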

How the data were processed

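The authors deposited log2 signals, with 1 value for each probe set on each array. Per the submitters' processing notes, the tools were affy, RMA and limma, with neither version nor role given, and background and scaling settings were not stated. Of 32635 probe sets, 96 AFFX controls were left out. Of the remaining 32539, 15495 had 1 gene symbol in the array annotation, 279 several and 16765 none. Entrez identifiers updated 2 symbols from the RefSeq gene table of Xenopus_laevis_v10.1. No further scaling was applied. The groups were compared with limma 3.58.1 in R 4.3.3 (lmFit and eBayes, two-sided, no covariate), with Benjamini-Hochberg adjustment over all tested probe sets and a threshold of 0.05. The steps were tested on simulated data. The limma p-values set each group difference against the spread between frogs within groups. The variance of each probe set is drawn there towards a value shared by all tested probe sets. The number of frogs, 6, limits precision. Differences between gene copies were compared by exact permutation. The members and gene lists were chosen with earlier results of these data known. Named genes are all members, up to 4 genes per list with the smallest p, and the 6 genes closest to the members' mean profile. Alternatives left out frogs, rescaled arrays, filtered dim probe sets, changed the variance model, added covariates or used 1 value per gene.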

Additional observations from a re-analysis of the deposited data

How the results depend on the processing

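No member passed adjustment under any of the 16 alternative fits or the 2 with 1 value per gene (smallest adjusted p over genes 0.809 and 0.819). Over all probe sets, calls ranged from 0 to 4 when frogs were left out in turn, with 4 without saline frog 2, and 1 gene passed when all probe sets of a gene were averaged. The count of members above 0 ranged from 11 to 13 when frogs were left out in turn, and the share of all probe sets from 49.2% to 53.3%. With either rescaling 14 members lay above 0, against 56.6% of all probe sets with centred arrays and 51.4% with quantile scaling. Without saline frogs 1 and 3 together the count was also 14, against 52.2%. The brighter 50% of probe sets held 6 members, 4 of them above 0, against 46.0% of all probe sets in that part. The median difference ranged from 0.11 to 0.23 when frogs were left out. The median correlation between members ranged from 0.20 to 0.37 when frogs were left out, with 0.37 without leptin frog 6, and was 0.70 in the brighter 50%, which leaves 6 members. Filtering dim probe sets, or changing the variance model without array weights, leaves each difference unchanged and could not turn a sign. Signs turned in 4 of 16 members. Leaving out frogs in turn, *mcm3.L* ranged from -0.0824 (without leptin frog 6) to 0.292, *mcm4.S* from -0.0610 (without leptin frog 5) to 0.156, with -0.0347 without saline frog 3, *cdc6.S* from -0.0689 (without leptin frog 5) to 0.445, and *gmnn.L* from -0.153 to 0.199 (without leptin frog 6), with 0.182 without saline frog 3. The other 12 members kept their sign in all alternatives, though with frogs left out in turn *mcm2.L* ranged from 0.05 to 0.31, *mcm4.L* from 0.19 to 0.48, *mcm5.L* from 0.14 to 0.41, *mcm6.L* from 0.04 to 0.30, *cdc6.L* from 0.07 to 0.24, *cdc45.L* from 0.03 to 0.22 and *cdc45.S* from 0.02 to 0.22. Array weights gave -0.0409 for *mcm3.L* and 0.233 for *gmnn.L*, and the muscle covariate -0.0700 for *mcm4.S* and 0.275 for *gmnn.L*. For *gmnn.L* the difference was 0.00326 with centred arrays, 0.00445 with quantile scaling and 0.225 without saline frogs 1 and 3 together. The cause was not tested. No paired analysis was made, since each frog received 1 treatment and the labels used here link no saline frog to a leptin frog.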
